A study of Mus musculus with 12 samples.

Results

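The collagen genes of corneal endothelial cells (CEC), other than those of types IV and VIII that build the Descemet membrane, were followed by their mean level in RNAseq. Genes were taken by symbol, as *Col* with a type number and a chain number, and by the biotype protein coding. Of the 15838 genes in the tables, 29 met this rule, all with a level. GENCODE M21 names 36 such genes, and the other 7 (*Col2a1*, *Col6a4*, *Col6a5*, *Col6a6*, *Col19a1*, *Col22a1* and *Col26a1*) were not analysed here. By the structure of the chain, the 29 genes comprised 10 fibrillar, 7 FACIT (fibril-associated collagens with interrupted triple helices), 4 membrane-bound and 8 other collagens.

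RNA came from CEC with their Descemet membrane, taken at 10 weeks of age in 12 libraries, with 3 for each sex of the KO and of the WT genotype. KO mice were Slc4a11-/-, with several middle exons of *Slc4a11* deleted on both alleles, and WT mice were Slc4a11+/+ littermates. All 4 groups were on a C57BL/6 background, and no other allele or treatment is named for them. The sample records describe membranes that were pooled, and the paper describes pairs from both corneas of a mouse. Every level below is the authors' mean log2 CPM (TMM-normalized read counts scaled to a common library size) over the libraries of all 4 groups, so it holds KO and WT, and males and females, in equal parts. The only levels in the tables are these means, with no value per library, so the depth and the error of each level are unknown. The tables also hold the authors' own comparisons of genotype and sex, which were set aside, and KO and sex differences are not reported. A level in CPM is given as 2 to the power of that mean, and levels of different genes are compared per kb of exon, with the length of all annotated exons merged. *Slc4a11* (ENSMUSG00000074796) had a mean level of 1675.9 CPM, which as a mean over KO and WT does not check the labels.

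Collagens are secreted or membrane-anchored proteins in which 3 chains wind into a triple helix. The helix needs a glycine at the first position of each amino acid triplet, since no larger residue has room at its centre. Fibrillar collagens have a long unbroken helix and pack side by side into the banded fibrils of the corneal stroma. FACIT collagens sit on the surface of those fibrils and have helices with interruptions. Membrane-bound collagens cross the plasma membrane, with the helix outside the cell, from where proteases can shed it. The Descemet membrane itself is the basement membrane of CEC, and it lies against the stroma.

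The repeat can be read in the coding sequence, where glycine is always encoded by GGN. Coding exons from inside the longest repeat of 7 genes are shown to set the fibrillar, FACIT and membrane-bound types side by side. Each is read from the GENCODE M21 transcript on GRCm38, 5′ to 3′ on the coding strand, with the GGN codons that keep the repeat in capitals.
Col1a1, exon 8 of 51, chr11:94939904-94939957, plus strand: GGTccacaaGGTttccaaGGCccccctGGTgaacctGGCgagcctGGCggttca
Col1a2, exon 8 of 52, chr6:4515481-4515534, plus strand: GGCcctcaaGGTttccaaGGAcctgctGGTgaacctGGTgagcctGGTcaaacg
Col12a1, exon 57 of 66, chr9:79612916-79612969, minus strand: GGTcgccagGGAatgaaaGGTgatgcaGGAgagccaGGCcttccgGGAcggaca
Col13a1, exon 28 of 41, chr10:61863941-61864003, minus strand: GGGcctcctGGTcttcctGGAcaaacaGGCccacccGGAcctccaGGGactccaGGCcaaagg
Col17a1, exon 26 of 54, chr19:47663803-47663856, minus strand: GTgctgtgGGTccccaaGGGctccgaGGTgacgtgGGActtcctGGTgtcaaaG
Col23a1, exon 13 of 29, chr11:51563000-51563053, plus strand: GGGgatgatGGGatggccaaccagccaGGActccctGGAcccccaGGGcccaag
Col25a1, exon 13 of 38, chr3:130517684-130517737, plus strand: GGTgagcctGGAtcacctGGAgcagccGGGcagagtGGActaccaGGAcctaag

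Each exon shown was picked as the one nearest to 54 bases among those with a length in multiples of 9. The lengths therefore follow from the choice and do not describe the exons of these genes in general. The exons of *Col1a1*, *Col1a2*, *Col12a1* and *Col25a1* each had 54 bases and 6 perfect triplets of codons, opening on a GGN codon. Of the full coding exons, 21 of 49 in *Col1a1* and 24 of 50 in *Col1a2* had 54 bases. In *Col12a1* 4 of 63 did, and in *Col25a1* 4 of 36. The exon of *Col13a1* had 63 bases and 7 perfect triplets. In *Col17a1* the exon opened inside a GGN codon, so that the repeat ran across the splice junction. In *Col23a1*, 5 of the triplets opened with GGN and 1 did not.

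*Col12a1*, which encodes the FACIT collagen XII, had the highest level of the 29 genes. Its mean log2 CPM was 13.54 (11939.6 CPM), or 784 CPM per kb of exon, above 99.8% of all genes with a length. *Col12a1* (ENSMUSG00000032332) is on chromosome 9, 79598991 to 79718831, minus strand. Both chains of type I collagen, the main fibrillar collagen of the stroma, came next. *Col1a1* (chromosome 11, 94936224 to 94953042) had 3825 CPM, or 583 CPM per kb. *Col1a2* (chromosome 6, 4504814 to 4541544) had 4296 CPM, or 346 CPM per kb. The next 3 genes per kb were the chains of type VI collagen, which forms beaded filaments between fibrils. *Col6a3* had 214 CPM per kb, *Col6a1* 146 and *Col6a2* 97.7. These 6 genes made up the top of the list in counts too, with *Col12a1* alone taking 45.8% of the summed CPM of the 29 genes, and *Col12a1*, *Col1a2* and *Col1a1* together 77.0%. The 10 genes with the most CPM held 98.4% of it, so the remaining genes together gave little of the summed CPM. These shares are of CPM not divided by length, and the merged exons of *Col12a1* span 15.2 kb. The order of neighbours in this ranking has no error attached to it, and it was not tested.

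**Figure D1:**
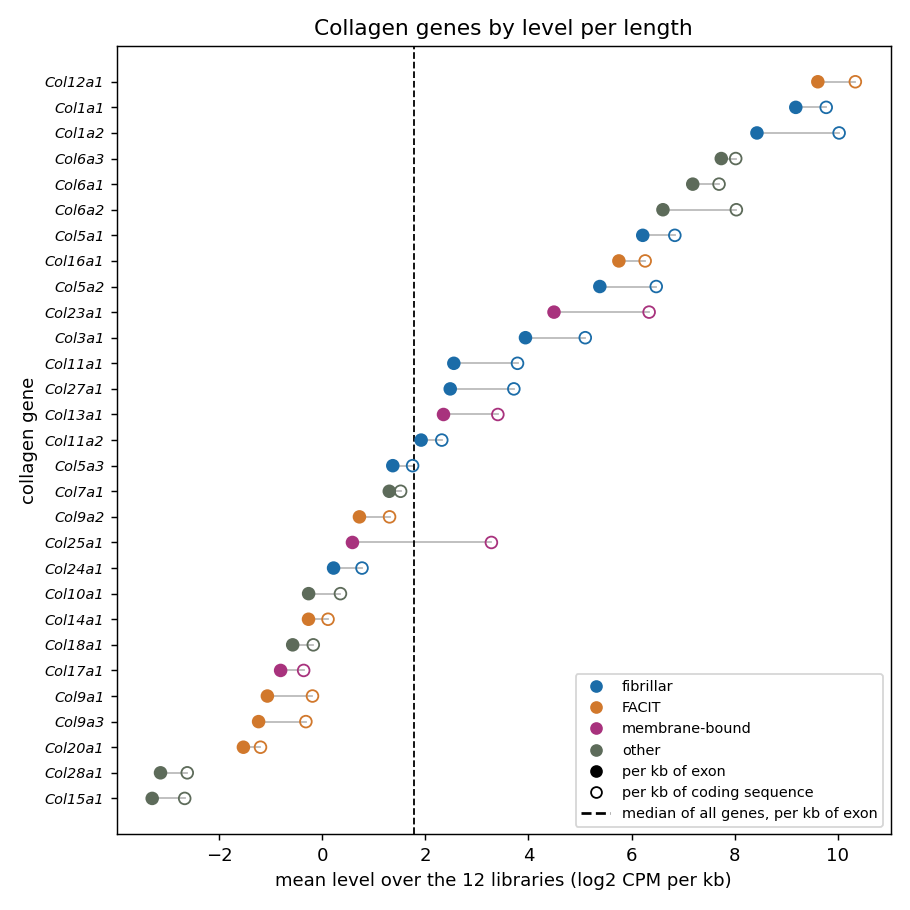
Mean level over the libraries (log2 CPM per kb) of each of the 29 collagen genes, per kb of exon (filled points) and per kb of coding sequence (open points), coloured by class, with the median of all genes per kb of exon as a dashed line. *Col12a1*, *Col1a1* and *Col1a2* lie furthest to the right on both scales, *Col25a1* moves most between the scales, and *Col15a1* and *Col28a1* lie furthest to the left.

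At 1 CPM or more were 27 of the 29 genes (93.1%), against 91.0% of all 15838 genes, which had already passed the authors' own filter on low counts. At 100 CPM or more were 11 of the 29 (37.9%), against 10.8% of all genes. Per kb of exon, 15 of the 29 were above the median of all genes (1.79 log2 CPM per kb) and 10 were in the top 10%. On this scale the median collagen was close to the median gene, at 1.92 log2 CPM per kb. Per kb of coding sequence it was below the median gene, at 3.28 against 3.87. With no length it was above, at 4.66 against 3.76 log2 CPM. Per kb of exon, the collagens ranged from -3.30 to 9.61. The levels of the family were thus spread over most of the range of the transcriptome, with a group of highly expressed genes and a group at low levels. For comparison, all 8 collagens of types IV and VIII were at 100 CPM or more, and their median was 8.83 log2 CPM per kb.

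Fibrillar collagens had the highest median of the 4 classes, 3.25 log2 CPM per kb. With genes of at least 1 CPM only, the median of the other collagens was above the fibrillar one, at 3.96, since *Col15a1* and *Col28a1* drop out. All 10 fibrillar genes were at 1 CPM or more, against 91.0% of all genes, and 5 were at 100 CPM or more, against 10.8%. Below type I came type V, which regulates fibril diameter from within the fibril. *Col5a1* (chromosome 2, 27886425 to 28039514) had 632 CPM, or 74.4 CPM per kb, and *Col5a2* (chromosome 1, 45374321 to 45503282) had 401 CPM, or 41.8 CPM per kb. *Col5a3*, the third chain of type V, was far lower, at 17.6 CPM or 2.58 CPM per kb. *Col3a1*, whose chain forms homotrimers in distensible tissues, had 151 CPM, or 15.4 CPM per kb. It lies next to *Col5a2* on chromosome 1, with 24.6 kb between them and on the opposite strand. The type XI genes, known from cartilage fibrils, were lower still, with 5.87 CPM per kb for *Col11a1* (chromosome 3, 114030540 to 114220718) and 3.78 for *Col11a2* (chromosome 17, 34039437 to 34066685). Of the later-found fibrillar types, *Col27a1* had 5.59 CPM per kb and *Col24a1* 1.16, the lowest of the class. Between the highest and the lowest fibrillar gene lay 9.19 and 0.22 on the log2 scale per kb.

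The FACIT class was split. *Col12a1* and *Col16a1* were in the top 10% of genes, the latter with 365 CPM or 5.75 log2 CPM per kb, and the other 5 were below the median of all genes. Collagen XVI associates with fibrils and with microfibrils at tissue borders. The product of *Col14a1* has the same kinds of domain as that of *Col12a1*, in a shorter chain of 1798 against 3065 codons. *Col14a1* had 5.83 CPM against the 11939.6 CPM of *Col12a1*, and 0.831 CPM per kb against 784. The 3 chains of type IX, which coats the type II fibrils of cartilage and vitreous, were at 1.65 CPM per kb for *Col9a2* (chromosome 4, 121039385 to 121055322), 0.478 for *Col9a1* (chromosome 1, 24177610 to 24252684) and 0.425 for *Col9a3* (chromosome 2, 180597790 to 180622189). *Col20a1* (chromosome 2, 180986535 to 181018363) was the lowest FACIT gene per kb, at 0.346. The class median was -0.27 log2 CPM per kb, and with 7 genes it falls on *Col14a1*.

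All 4 membrane-bound collagen genes were at 1 CPM or more, against 91.0% of all genes. The class median, 1.47 log2 CPM per kb of exon, was between the fibrillar and the FACIT medians and below the 1.79 of all genes. Per kb of coding sequence it was also below that of all genes, 3.34 against 3.87. With no length it was above, at 4.42 against 3.76 log2 CPM. *Col23a1* (ENSMUSG00000063564, chromosome 11, 51289920 to 51583918) was the highest, at 129 CPM or 22.6 CPM per kb, and the only gene of the 4 in the top 10%. *Col13a1* (ENSMUSG00000058806, chromosome 10, 61838236 to 61979108), whose product is found at cell adhesions and at the neuromuscular junction, had 23.5 CPM or 5.11 CPM per kb. *Col25a1* (ENSMUSG00000058897, chromosome 3, 130131501 to 130599877), which is known from neurons and from amyloid plaques, had 19.4 CPM or 0.59 log2 CPM per kb. *Col17a1* (ENSMUSG00000025064, chromosome 19, 47646344 to 47692094), the hemidesmosome collagen of basal epithelial cells, was the lowest at 3.43 CPM or 0.571 CPM per kb. The position of *Col25a1* depended on the length used, because its merged exons span 12.9 kb and its coding sequence only 2.00 kb. Per kb of coding sequence it ranked 15th of the 29 genes, against 19th per kb of exon, and *Col23a1* ranked 9th against 10th. The 4 genes together held 0.675% of the summed CPM of the family, against 36.5% for the fibrillar and 47.3% for the FACIT genes. These shares are of CPM not divided by length, so they do not rank the classes per kb. Of the 12320.9 CPM of the FACIT class, 11939.6 were from *Col12a1* alone.

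Among the other collagens, the type VI genes stood at the top and the rest were low. *Col6a1* (chromosome 10, 76708792 to 76726168) and *Col6a2* (chromosome 10, 76595762 to 76623630) lie 85.2 kb apart on the same strand, with 639 and 813 CPM, and *Col6a3* (chromosome 1, 90765923 to 90843971) had 2560.2 CPM. *Col7a1*, whose product forms the anchoring fibrils under the epithelium, had 25.3 CPM or 2.46 CPM per kb. *Col10a1*, the network collagen of hypertrophic cartilage, had 0.832 CPM per kb. *Col18a1*, a basement membrane collagen and the source of endostatin, had 4.72 CPM or 0.672 CPM per kb. The lowest levels of the family were those of *Col15a1* (chromosome 4, 47208161 to 47313167), the close relative of *Col18a1*, at 0.645 CPM, and of *Col28a1* (chromosome 6, 7997808 to 8192617), at 0.557 CPM. These were the only 2 genes under 1 CPM.

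Several of these genes share exonic bases with another gene, and whether the counting used strand is not given in the sources used here. *Col9a3* shares 234 exonic bases with *Tcfl5* on the opposite strand, and *Col10a1* 18 with *Nt5dc1*. *Col5a1*, *Col15a1*, *Col3a1*, *Col7a1* and *Col20a1* overlap non-coding genes by 14 to 141 bases each. The part of *Tcfl5* reads in the 1.64 CPM of *Col9a3* was not tested.

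Type I and type V trimers hold more than 1 kind of chain, so the levels of the partner genes were set side by side per kb. Per kb of exon, *Col1a1* was 1.69 times *Col1a2*, but per kb of coding sequence it was 0.841 times, and the direction therefore turned with the length used. The merged exons of *Col1a2* span 12.4 kb, against 6.56 kb for *Col1a1*, while their coding sequences have 4.12 and 4.36 kb. The type I trimer holds more of the *Col1a1* product than of the *Col1a2* product. *Col5a1* was above *Col5a2* on both scales, 1.78 times per kb of exon and 1.28 times per kb of coding sequence. The 3 chains of type VI, which enter the trimer in equal number, lay within 2.19 times of each other per kb of exon. Per kb of coding sequence they lay within 1.26 times, with *Col6a3* at 0.991 times *Col6a2* and at 1.25 times *Col6a1*, and *Col6a1* at 0.792 times *Col6a2*. *Col9a1* was 0.290 times *Col9a2* per kb of exon and 0.355 times per kb of coding sequence, and 1.13 and 1.09 times *Col9a3*. *Col11a1* was 1.55 and 2.77 times *Col11a2* on the same scales. Only differences that kept their sign on both scales can be read as an order of the chains, and none of them has an error.

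**Figure D2:**
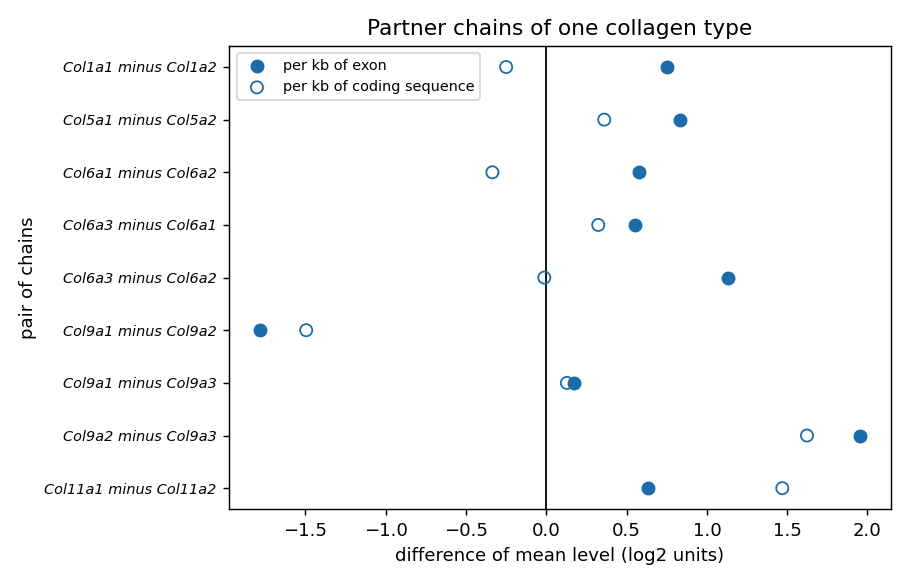
Difference of the mean level (log2 units) between chains of one collagen type, per kb of exon (filled points) and per kb of coding sequence (open points), with a line at equal levels. The points of *Col1a1* minus *Col1a2* lie on both sides of the line (0.75 and -0.25), those of *Col6a1* minus *Col6a2* do too, and *Col9a2* lies above *Col9a1* and *Col9a3* on both scales.

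The glycine repeat was measured to describe the classes. Since a long unbroken helix is what defines the fibrillar class, its long runs follow from the grouping. A run was counted as successive codon triplets that open with GGN, with 1 imperfect triplet at a time bridged. The longest run of the 10 fibrillar genes was 216 to 347 triplets (median 338). In the other classes it was 32 to 113 in FACIT (median 92), 40 to 62 in membrane-bound (median 50) and 28 to 87 in the other genes (median 53). *Col24a1* (216) and *Col27a1* (217) were the shortest fibrillar runs, below the 337 to 347 of the other 8. A run of at least 10 triplets was present in all 29 genes and in the 8 collagens of types IV and VIII. Of the 12905 other protein-coding genes with a coding sequence, 61 (0.473%) had such a run.

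The share of the coding sequence in the repeat gave another order. In membrane-bound collagens, runs of at least 5 triplets took 69.4% of the codons of *Col23a1*, 71.9% of *Col13a1*, 71.6% of *Col25a1* and 41.4% of *Col17a1*. Of these, *Col23a1*, *Col13a1* and *Col25a1* lay within the range of the fibrillar genes (53.5% to 78.3%), and *Col17a1* lay below it. The repeat was broken into 3 to 18 runs in membrane-bound genes, against 2 or 3 in fibrillar genes. The first run opened 109 to 426 codons after the start codon in membrane-bound genes, the 426 being that of *Col17a1*. The place of the membrane span was not read from these sequences. Runs were counted by codons alone, so a run need not lie in the helix outside the cell. *Col12a1*, the gene with the highest level, was the poorest in collagen repeat, with 8.22% of its 3065 codons in runs and 2748 codons before the first of them. Its long front part is known for fibronectin type III and von Willebrand factor A domains. *Col14a1* and *Col20a1* had 14.02% and 11.01%, and *Col6a3* 10.1%, whereas the short FACIT chains *Col9a2* and *Col9a3* had 85.9% and 86.9%.

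**Figure D3:**
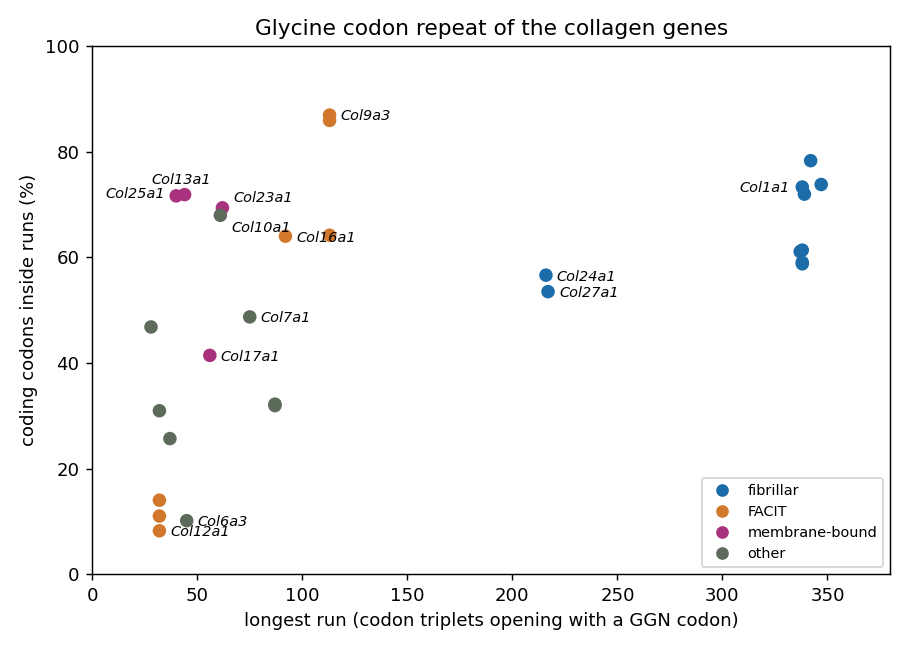
Longest run of codon triplets that open with a GGN codon (horizontal axis) against the percentage of coding codons inside runs of at least 5 triplets (vertical axis), with 1 point per gene, coloured by class. All fibrillar genes lie at 216 triplets or more, the membrane-bound genes lie at 40 to 62 triplets with 41.4% to 71.9% of codons, and *Col12a1* lies lowest at 8.22%.

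The exons followed the same repeat. Of the 575 exons of fibrillar genes that are coding from end to end, 482 (83.8%) had a length that is a multiple of 9 bases, which keeps whole triplets, and 281 (48.9%) had exactly 54 bases. The share with a multiple of 9 was 69.3% of 153 exons in membrane-bound genes, 47.7% of 306 in FACIT genes and 52.5% of 326 in the other collagens. In all other genes of the tables it was 13.4% of 122807 exons. Only 14 of the 153 exons of membrane-bound genes (9.15%) had 54 bases, against 66 of the 306 in FACIT genes (21.6%), of which 42 were in the 3 type IX genes with 14 each.

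The enzymes that make and assemble collagen were listed with its receptors. Of the 41 genes listed, 39 had a level. All 39 were at 1 CPM or more, against 91.0% of all genes. The median of the 39 was 4.23 log2 CPM per kb, above the 1.79 of all genes and the 1.92 of the collagens. Among hydroxylases and their partners, *P4hb*, the beta subunit of prolyl 4-hydroxylase, was highest at 209 CPM per kb, and *P4ha3*, an alternative catalytic subunit, was lowest at 1.82. *Serpinh1*, the collagen chaperone HSP47, had 197 CPM per kb, and *Colgalt2*, which adds galactose to hydroxylysine, 13.98. In propeptide trimming, *Pcolce*, which enhances the C-proteinase, had 132 CPM per kb, and its relative *Pcolce2* 1.41. Of the crosslinking oxidases, *Loxl1* was highest at 102 CPM per kb and *Loxl4* lowest at 1.39.

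Among receptors, *Itgb1*, the beta subunit shared by all collagen-binding integrins, had 146 CPM per kb. Its alpha partners were far lower, at 5.55 CPM per kb for *Itga1*, 5.12 for *Itga11*, 0.228 for *Itga10* and 0.190 for *Itga2*. *Ddr2*, a receptor tyrosine kinase for fibrillar collagen, had 59.9 CPM per kb. All 4 proteases listed for the shedding of membrane-bound collagens were at 100 CPM or more, against 10.8% of all genes. The 4 ran from 102 CPM for *Adam17* to 196 CPM for *Adam9*.

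The libraries came from a membrane peeled from the cornea, and markers of other cells were read beside the collagens. The 8 markers of CEC all had a level, with a median of 7.67 log2 CPM per kb. *Aqp1* was highest at 5279 CPM and *Car12* lowest at 3.15 CPM. Of 8 genes listed as markers of stromal keratocytes, the cells that produce types I, V, VI and XII in the stroma, 7 had a level. How particular each of them is to keratocytes was not tested. The median of the 7 was 7.23 log2 CPM per kb. *Dcn* had 3796 CPM, *Angptl7* 1192, *Aldh3a1* 1065, *Lum* 361 and *Kera* 342, but *Ptgds* had 18.2 and *Aqp5* 15.6. *Lum* and *Kera* were therefore at 147 and 150.2 CPM per kb, between the levels of *Col6a3* and *Col6a2*. The part of stromal RNA in the levels of *Col1a1*, *Col1a2*, *Col5a1*, *Col6a1* and *Col12a1* was not tested. In these bulk libraries, many cells with little RNA of a gene and few cells with much of it cannot be told apart.

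Beside *Col17a1* and *Col7a1*, which are known from epithelium, the 7 epithelial markers had a summed level of 79.8 CPM. *Krt5* had 34.8 CPM, *Krt15* 26.9, *Krt12* 6.07 and *Krt14* 4.55. The part of epithelial RNA in the 3.43 CPM of *Col17a1* was not tested. Markers of other cells had summed levels of 18.5 CPM for 5 iris pigment genes, 25.3 for 4 leukocyte genes and 9.78 for 3 lens genes. The sums were 85.8 for 4 genes of vascular endothelium (82.1 of it *Kdr*) and 85.2 for 3 genes of Schwann cells (81.1 of it *Pmp22*). Of 4 muscle genes only *Myh11* had a level, 206 CPM, or 4.76 log2 CPM per kb against a median of 1.79 for all genes.

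**Figure D4:**
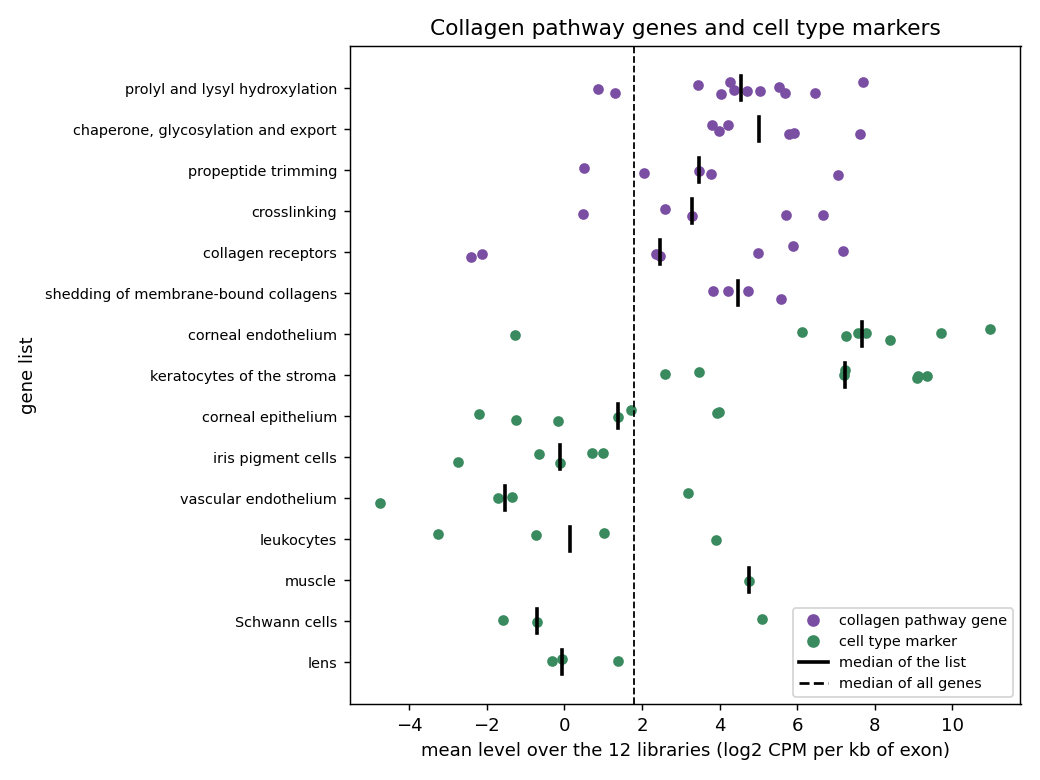
Mean level over the libraries (log2 CPM per kb of exon) of the collagen pathway genes (purple) and the cell type markers (green), with 1 point per gene, the median of each list as a bar and the median of all genes as a dashed line. Markers of corneal endothelium (median 7.67) and of keratocytes (median 7.23) have their medians to the right of the dashed line. The muscle list, with a level for *Myh11* only (4.76), is also to the right. The lists of corneal epithelium, leukocytes, vascular endothelium, Schwann cells, iris and lens have their medians to the left of it.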

How the data were processed

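RNAseq of CEC from 12 libraries was deposited as 3 tables of 15838 genes, for genotype, sex and their interaction. Per the labels and methods, HISAT2 placed the paired-end reads on GRCm38, and the authors turned counts into TMM-normalized CPM for limma with voom. The counter, versions and annotation release are not given in the sources used here. The 1 column used was the mean level that the authors deposited on the log2 scale (log2 CPM over all libraries), which differed between the tables by 0. The other columns hold the authors' own comparisons (log2 fold change, t, p, adjusted p and B) and were set aside, so no KO or sex comparison was made and no test was run. The tables give no depth and no error of the mean level.

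Levels per kb used the merged exons of GENCODE M21 (15824 genes matched by identifier) or, as an alternative, the longest coding sequence. Protein sequences were not used here, and the repeat was counted in coding sequences instead, with runs of at least 5 triplets, after the counting had been tested on simulated sequences. Python 3.11.15, pandas 2.3.3 and matplotlib 3.10.9 were used. The members and lists were chosen with earlier results of these data known. Named singly are the 5 genes highest per kb, the 5 lowest in CPM, the membrane-bound genes, partner chains, *Slc4a11*, and the highest and lowest gene of each role in the pathway. Other genes named were chosen after their values were seen.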

Additional observations from a re-analysis of the deposited data

How the results depend on the processing

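The count of collagens, 27 at 1 CPM or more, was 29 at 0.5 CPM and 25 at 2 CPM. It was 27 from each of the 3 tables by necessity, since they hold the same mean levels. The count of pathway genes was 39 at 0.5 CPM and 37 at 2 CPM. With coding length, the class medians in log2 CPM per kb were 4.45 (fibrillar), 0.11 (FACIT), 3.34 (membrane-bound) and 0.94 (other). The median of all genes with a coding sequence was 3.87 on that scale. With no length the class medians were 6.73, 2.35, 4.42 and 3.45 log2 CPM, against 3.76 for all genes. The order of the 4 classes was the same on these scales. Without types XXIV and XXVII the fibrillar median was 4.66, and with genes of at least 1 CPM only the median of the other collagens was 3.96, which is above the fibrillar one, because *Col15a1* and *Col28a1* drop out. Differences between partner chains, in log2 units, reversed for *Col1a1* minus *Col1a2* (-0.25 with coding length, -0.17 with no length), *Col6a1* minus *Col6a2* (-0.34 and -0.35) and *Col6a3* minus *Col6a2* with coding length (-0.013, and 1.65 with no length). With coding length and with no length, the others were 0.36 and 0.66 for *Col5a1* minus *Col5a2*, 0.32 and 2.00 for *Col6a3* minus *Col6a1*, -1.50 and -1.07 for *Col9a1* minus *Col9a2*, 0.13 and 0.57 for *Col9a1* minus *Col9a3*, 1.62 and 1.64 for *Col9a2* minus *Col9a3*, and 1.47 and 1.52 for *Col11a1* minus *Col11a2*. With no imperfect triplet bridged, the median longest run of FACIT genes was 52, since *Col16a1* fell from 92 to 52. That of membrane-bound genes fell from 50 to 43.5, with *Col23a1* going from 62 to 43. The fibrillar (338) and other (53) medians were unchanged, so the FACIT median came below that of the other collagens.

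No paired analysis was possible because the values are means over all libraries. Leaving out a library was not possible for the same reason. Levels near 1 CPM rest on few reads, and the number is unknown.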
